A study of Mus musculus and Rattus norvegicus with 36 samples.

Results

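Neurexins, neuroligins and SynCAMs are families of adhesion proteins that hold synapses together, and their transcripts were followed here in oligodendrocyte precursor cells (OPCs), the glial progenitors that make oligodendrocytes and receive synapses from neurons. The set was chosen by gene name: 9 genes, the neurexins Nrxn2 and Nrxn3, the neuroligins Nlgn1, Nlgn2 and Nlgn3, and the SynCAMs Cadm1, Cadm2, Cadm3 and Cadm4, among the 18464 genes of the acute table, 26410 and 26349 genes of the mouse hippocampus and mPFC culture tables, and 16263 and 16437 genes of the rat GABA and glutamate tables. Each member had 1 entry with values in each of the 5 tables. The 36 libraries, in 12 groups of 3, are poly-A RNA of OPCs sequenced as single reads. Of these, 12 come from OPCs taken directly from mouse brain by immunopanning, 12 from mouse OPC cultures and 12 from rat OPC cultures.

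The acute knockout libraries are from hippocampus or mPFC (medial prefrontal cortex) of Pdgfralpha-CreER;Baf155-flox/flox mice, in which a tamoxifen-inducible Cre under a promoter of the OPC lineage removes Baf155 (gene symbol Smarcc1), which encodes a scaffold protein of BAF, a complex that moves nucleosomes. Their controls are Baf155-flox/flox littermates without Cre, from the same regions. Both genotypes carry the floxed alleles, and the labels give neither ages nor an induction schedule. Their tissue field names mPFC where the isolation protocol speaks of cortex. Cultured mouse OPCs were wild type, from hippocampus or mPFC, and received 200 uM GABA for 24 h after 2 days in culture, or nothing. Cultured rat OPCs were wild type, from cortex, in a set with 200 uM GABA and its own untreated cultures and a set with 200 uM glutamate and its own untreated cultures. Nothing in the labels says that the libraries of a group are separate animals or cultures. The p-values therefore measure the spread between libraries, which may be technical. In the fits (limma) the spread of each gene is drawn toward a trend over all genes of the fit. A p-value or SE thus does not rest on that gene's own libraries alone, and can be smaller than they alone would give.

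As background, neurexins are presynaptic receptors, each made in a long alpha form and a short beta form from separate promoters, and neuroligins are their classical postsynaptic partners. NLGN1 is found mainly at excitatory synapses, NLGN2 at inhibitory synapses, and NLGN3 at both. SynCAMs are immunoglobulin-domain proteins that bind one another across the cleft, and CADM4 on myelinating glia binds CADM3 on axons. OPCs are the postsynaptic side of neuron to OPC synapses, and all 3 families are transcribed outside neurons as well.

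Smarcc1 was low but present in the knockout libraries, at 1510 to 1631 normalized read counts in hippocampus and 2368 to 2649 in mPFC, against 4419 to 4514 and 3814 to 3915 in the control libraries labelled hippocampus and mPFC. Sequencing depth, estimated as the sum of a library's values over their smallest step, came to 14.9 to 22.1 M reads per library. These steps lie near 1, so the estimate rests on the values alone, and no test uses it. Of 12 OPC markers, 12 averaged at least 10 normalized read counts in each group. The region labels of the acute libraries are in doubt. Of 11 forebrain regional factors whose knockout hippocampus and knockout mPFC libraries do not overlap, 9 separate the control groups in the opposite direction, 2 overlap there and 0 separate them as labelled. Neurod1, a factor of hippocampal granule neurons, averaged 26.3 in knockout hippocampus and 2.0 in knockout mPFC, but 4.7 in the controls labelled hippocampus and 147 in the controls labelled mPFC. Nr2f2 averaged 394 and 137 in the knockout groups and 142 and 348 in the control groups, in the same order. Some of these factors were low, Neurod2 averaging 0.3 to 19.5. Whether the control labels, the knockout labels or an effect of the knockout on these factors lies behind this was not tested. Groups are therefore called by their labels, and regional knockout results are set against both control groups. The average knockout effect over both regions, which does not depend on the region labels, comes first. Knockout mPFC library 3 and control hippocampus library 3 stand apart from their groups and are treated with the results they touch. Transcripts of the Y chromosome were higher in the knockout libraries: Kdm5d stood at 337 to 349 in knockout hippocampus and 398 to 481 in knockout mPFC, against 155 to 203 and 88.6 to 98.8 in the controls labelled hippocampus and mPFC. This difference moves with genotype, and its part in the results was not tested.

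The start regions of Nrxn3, Nlgn2 and Cadm3 are shown, the members whose average fall in the knockout no removal of a single library ended. With all libraries, Nlgn2 and Cadm3 passed against the controls labelled hippocampus only. RefSeq windows of GRCm38.p6 reach from 250 bases before to 50 bases after a gene's start, and 6 of the 9 members have one, in 9 windows (none for Nrxn2, Nlgn3 and Cadm1). Each is written 5′ to 3′ on the gene's strand, with CG dinucleotides in capitals. Nrxn3 has 3 windows on the plus strand, of which the outermost are shown, at chr12:88794254-88794553 and chr12:89812233-89812532. Nlgn2 lies on the minus strand at chr11:69837735-69838034 and Cadm3 on the minus strand at chr1:173367646-173367945.
Nrxn3 first window: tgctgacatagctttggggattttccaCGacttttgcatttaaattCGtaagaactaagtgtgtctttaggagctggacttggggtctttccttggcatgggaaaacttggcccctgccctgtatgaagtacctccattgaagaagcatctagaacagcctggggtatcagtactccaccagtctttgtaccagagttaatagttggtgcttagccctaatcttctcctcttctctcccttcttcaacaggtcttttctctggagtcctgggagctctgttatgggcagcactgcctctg
Nrxn3 last window: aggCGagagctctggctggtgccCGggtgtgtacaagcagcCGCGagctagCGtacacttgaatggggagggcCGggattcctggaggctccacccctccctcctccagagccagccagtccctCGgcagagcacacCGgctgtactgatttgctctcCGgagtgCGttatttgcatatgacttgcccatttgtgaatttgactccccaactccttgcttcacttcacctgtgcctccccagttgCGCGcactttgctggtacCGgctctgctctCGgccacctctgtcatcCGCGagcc
Nlgn2: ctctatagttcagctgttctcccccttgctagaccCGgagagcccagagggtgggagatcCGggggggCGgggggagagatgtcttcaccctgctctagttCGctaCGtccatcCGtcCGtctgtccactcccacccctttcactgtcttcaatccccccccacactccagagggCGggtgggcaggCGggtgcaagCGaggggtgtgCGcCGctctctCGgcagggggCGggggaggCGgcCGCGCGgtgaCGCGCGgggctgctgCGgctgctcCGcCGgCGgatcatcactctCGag
Cadm3: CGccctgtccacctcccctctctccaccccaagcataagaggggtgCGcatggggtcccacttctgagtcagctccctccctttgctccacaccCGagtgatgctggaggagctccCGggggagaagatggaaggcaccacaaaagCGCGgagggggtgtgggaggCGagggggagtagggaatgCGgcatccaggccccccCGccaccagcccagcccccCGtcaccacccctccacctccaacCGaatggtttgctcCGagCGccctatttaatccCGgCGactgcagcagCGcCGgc
The first Nrxn3 window holds 2 CG dinucleotides and the last 16, against 26 in the Nlgn2 window, 17 in the Cadm3 window and 40 in that of Cadm4. The median of all 32851 windows is 7. The SOX motif ACAAAG, read on both strands, occurs in 18.7% of all windows and once in the first Nrxn3 window. The E-box CAGCTG, the same on both strands, occurs in 16.3% of all windows and once in the Nlgn2 window, and the AP-1 motif TGANTCA, on both strands, in 7.8% of all windows and once in the Cadm3 window. No window shown holds more than 1 of the motifs. These matches describe the letters and nothing more.

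Set per kb of exon, the order of the members was steep. Cadm4, the glial SynCAM, was first and Nlgn2 second in each of the 8 mouse groups, and Nlgn1 was eighth and Nrxn3 ninth in each. In acute knockout hippocampus Cadm4 stood at 4436 ± 54.0 normalized read counts per kb (SD, n = 3), Nlgn2 at 1492 ± 46.7 and Nrxn3 at 31.6 ± 2.0. In the acute controls labelled hippocampus the same genes stood at 4971 ± 441, 1989 ± 169 and 47.6 ± 3.9. The neighbours Cadm2 and Nlgn3 overlapped in knockout hippocampus, at 467 and 463 per kb, and in the controls labelled hippocampus, at 486 and 495, where Cadm1 and Cadm3 overlapped too, at 210 and 208. All other neighbours in the order of the 4 acute groups were apart. Within families, Nrxn2 made up 90.3% of the neurexin members per kb in knockout hippocampus and 90.4% in knockout mPFC, against 87.6% and 86.9% in the controls labelled hippocampus and mPFC. Nlgn2 made up 72.3% and 72.1% of the neuroligins in the knockout groups and 76.6% and 74.2% in the control groups, in the same order, and Cadm4 82.0% to 87.0% of the SynCAMs over all 12 acute libraries. In culture Nlgn3 was low, at 223 to 247 per kb in the 4 mouse groups, beside 463 to 505 in the 4 acute groups, but these tables were normalized separately and this difference was not tested. Exon length is the union of all GENCODE M21 exons of a gene, so a gene of which OPCs use only the short forms is understated.

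**Figure D1:**
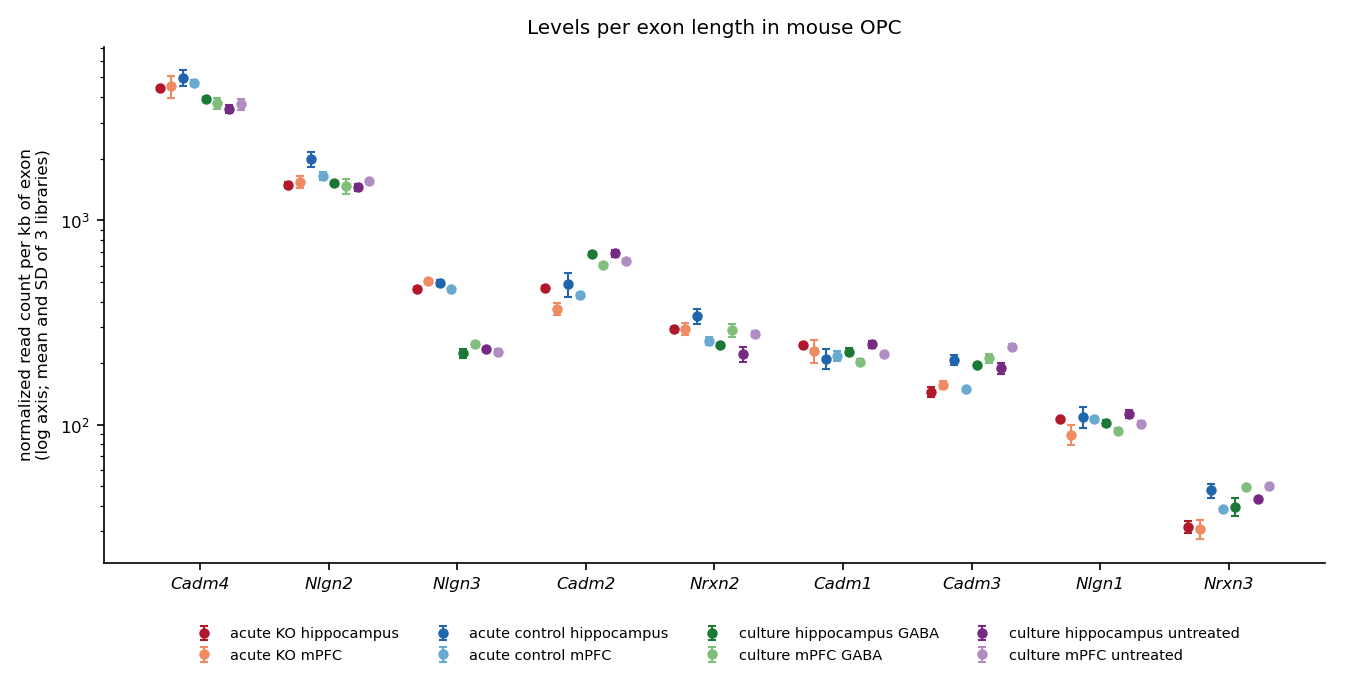
Level of each member per exon length (normalized read count per kb of exon, log axis) in the 8 mouse groups, points and bars being the mean and SD of 3 libraries. Cadm4 and Nlgn2 lead in each group, and Nrxn3 is lowest, at 30.9 to 50.2 per kb.

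In the knockout Nrxn3 fell against both control groups, while Nlgn2 and Cadm3 fell against the controls labelled hippocampus and did not pass against those labelled mPFC. Over both regions 5 of the 9 members fell and 1 rose, 66.7% of the set beside 54.4% of all 13985 genes tested (adjusted p under 0.05 by limma), so the share is not far from the background. Of all genes 26.9% rose and 27.5% fell. The median log2 fold change was -0.14 over the members and -0.012 over all genes. OPC markers moved too: of 12 tested, 10 fell and 2 rose, with a median of -0.34, and of 12 astrocyte markers 9 rose and 2 fell. Summed, the OPC markers stood at 222932 to 226221 in knockout hippocampus and 214198 to 224097 in knockout mPFC, against 251286 to 257324 and 261440 to 262315 in the controls labelled hippocampus and mPFC. The astrocyte markers stood at 30426 to 31039 and 36207 to 37494 in the knockout groups, against 27150 to 27633 and 28398 to 28809 in the control groups, in the same order. Of 15 neuron markers 3 rose and 6 fell, of 12 microglia markers 2 rose and 6 fell, and of 12 mural and fibroblast markers 7 rose and 2 fell. The mural and fibroblast sums were nonetheless lower, at 12140 to 12545 and 11797 to 12977 in knockout hippocampus and mPFC. Their controls summed to 13641 to 15583 and 13501 to 14097 under the hippocampus and mPFC labels. This list shares Cspg4 with the OPC markers. Of 6 myelin genes tested 4 rose and 1 fell, with sums of 31186 to 31811 and 30707 to 33247 in knockout hippocampus and mPFC, against 31514 to 32898 and 25646 to 27005 in the controls labelled hippocampus and mPFC. Of 4 endothelial markers tested 2 rose and 0 fell. The part of these shifts in the results was not tested. In bulk RNA, fewer cells of a type and less RNA per cell cannot be told apart.

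Positions are those of GENCODE M21 on GRCm38. Among the neurexins, Nrxn3 (chr12:88722876-90334935, plus strand) had 392, 378 and 427 normalized read counts in knockout hippocampus and 375, 356 and 439 in knockout mPFC, against 550, 600 and 650 in the controls labelled hippocampus and 492, 483 and 491 in those labelled mPFC. All 6 knockout libraries lay below all 6 control libraries, as the genotypes did without overlap for 22.6% of all genes in either direction. It fell by a log2 fold change of -0.46 ± 0.059 (SE; 0.73-fold; adjusted p = 1.28e-05), and the call held with each library left out in turn. Nrxn2 (chr19:6418731-6544169, plus strand) had 4026, 4083 and 4131 in knockout hippocampus and 4296, 4157 and 3744 in knockout mPFC, against 4944, 4893 and 4245 and then 3705, 3365 and 3583 in the controls labelled hippocampus and mPFC. All knockout libraries lay above the controls labelled mPFC and all but 1 below those labelled hippocampus, and the average did not pass, at -0.002 ± 0.045 (adjusted p = 0.967).

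Of the neuroligins, Nlgn2 (chr11:69823122-69837784, minus strand), the inhibitory synapse form, had 8798, 8774 and 8319 in knockout hippocampus and 9192, 9360 and 8201 in knockout mPFC. Its controls had 12261, 11852 and 10399 under the hippocampus label and 9803, 9062 and 9693 under the mPFC label. The genotypes touched only between knockout mPFC and the controls labelled mPFC, and Nlgn2 fell by -0.25 ± 0.045 (0.839-fold; adjusted p = 0.000247). Nlgn1 (chr3:25426215-26332460, minus strand), the excitatory synapse form, ranged over 1427 to 1454 and 1100 to 1352 in knockout hippocampus and mPFC, and over 1343 to 1657 and 1422 to 1461 in the controls labelled hippocampus and mPFC. It fell by -0.14 ± 0.057 (adjusted p = 0.0423), a call that ended in 9 of the 12 removals of a single library, at adjusted p = 0.0636 to 0.106, and without the filter on low values (0.0558). Nlgn3 (chrX:101299168-101325963, plus strand), whose protein is shed by neurons and OPCs, differed by 0.015 ± 0.027 and did not pass (adjusted p = 0.668). It is X-linked, and the Y transcripts differ between the genotypes as given above.

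Of the SynCAMs, Cadm3 (chr1:173333258-173367695, minus strand), the axonal partner of Cadm4, had 1079, 987 and 1095 in knockout hippocampus and 1110, 1199 and 1105 in knockout mPFC, against 1564, 1554 and 1414 in the controls labelled hippocampus and 1100, 1067 and 1075 in those labelled mPFC. Only the controls labelled hippocampus stood high, and the average fell by -0.22 ± 0.041 (0.857-fold; adjusted p = 0.000332). Cadm2 (chr16:66655421-67620908, minus strand) fell by -0.14 ± 0.051 (adjusted p = 0.031), a call that 6 of 12 single removals ended, at 0.0504 to 0.072. Cadm1 (chr9:47530173-47857637, plus strand) alone among the members rose, by 0.16 ± 0.061 (1.113-fold; adjusted p = 0.0432), and 8 of 12 single removals ended that call, at 0.0617 to 0.115, as did TMM rescaling (0.0501) and no filter on low values (0.0594). Cadm4 (chr7:24482023-24504539, plus strand) had 9501 to 9719 and 8360 to 10629 in knockout hippocampus and mPFC, against 9737 to 11635 and 9799 to 10458 in the controls labelled hippocampus and mPFC. The ranges overlap, and its difference of -0.11 ± 0.055 did not pass (adjusted p = 0.0958), but did without knockout mPFC library 2 (0.0336) and without control hippocampus library 3 (0.0266). No single removal ended the falls of Nrxn3, Nlgn2 and Cadm3.

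**Figure D2:**
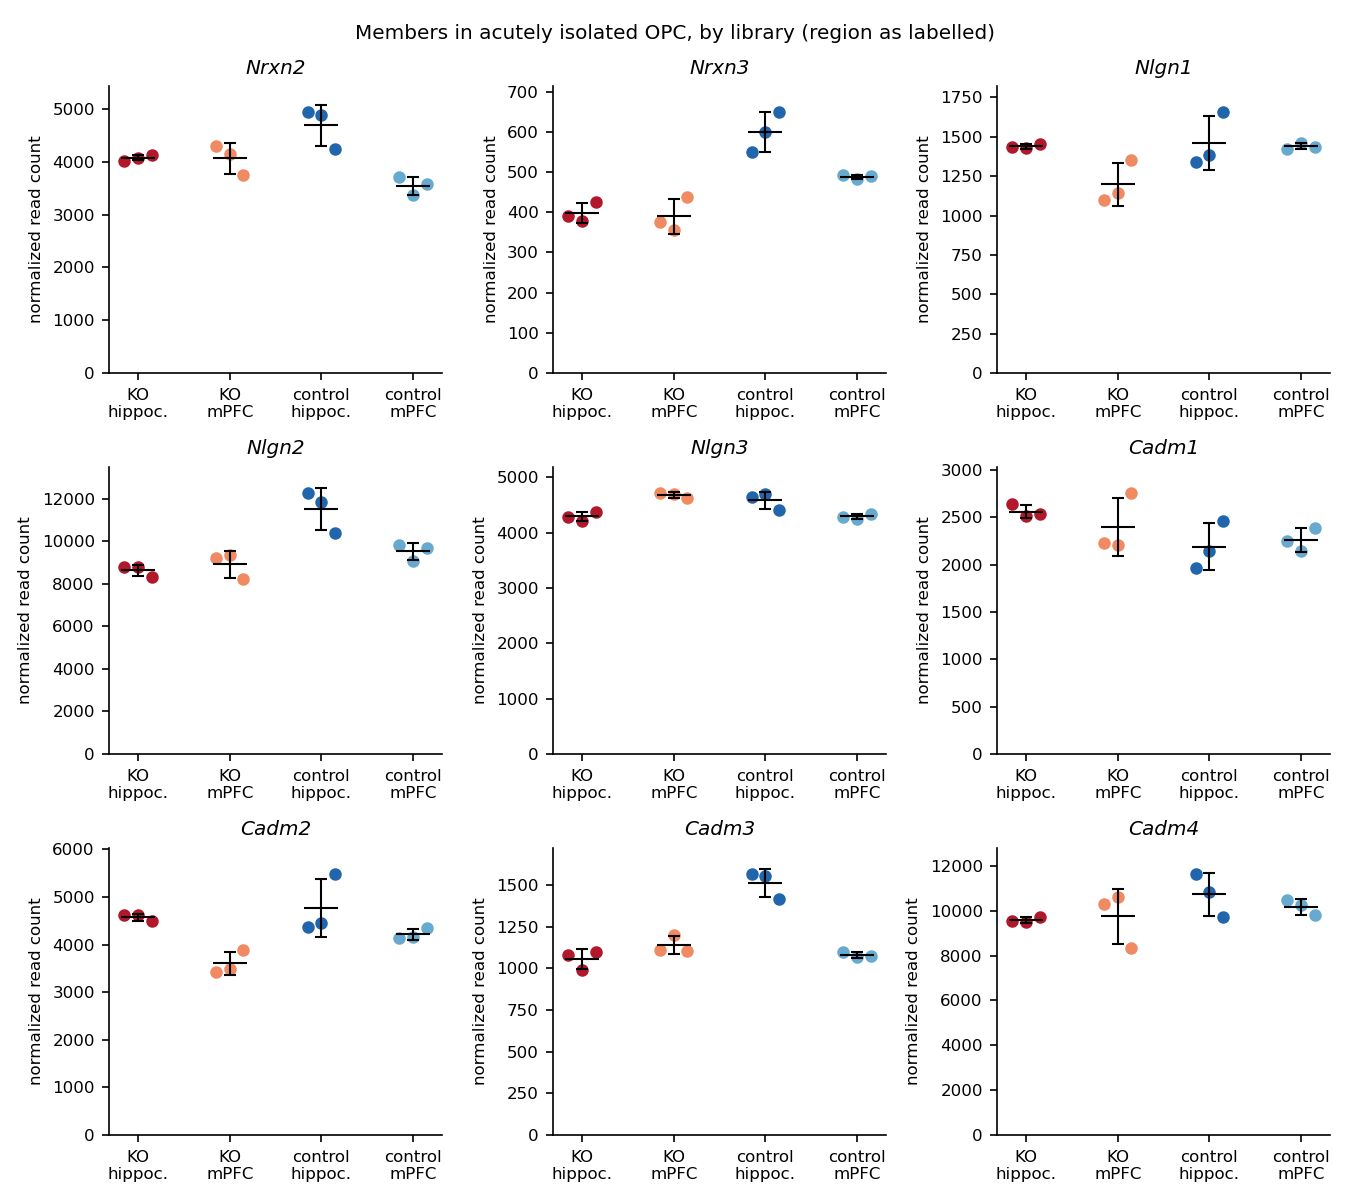
Normalized read counts of the 9 members in the 12 acute libraries (points; horizontal bars are means and error bars SD of 3 libraries), knockout groups left and control groups right, regions as labelled. The knockout groups of Nrxn3, at 356 to 439, lie below both control groups, at 483 to 650.

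Region by region, Nrxn3 was the 1 member that fell in both regions against either control group. In hippocampus 4 members fell and 1 rose, and in mPFC 3 fell and 2 rose, against the controls of the same label. Both are 55.6% of the set, where 42.6% and 47.4% of all genes passed in hippocampus and mPFC (21.7% and 24.1% rose, 21.0% and 23.2% fell). Groups did not overlap for 7 and 6 members, beside 54.7% and 54.2% of all genes. Against the controls of the other label 2 members passed for knockout hippocampus and 6 for knockout mPFC, where 48.1% and 38.8% of all genes did. Without both libraries that stand apart, 6 passed for knockout hippocampus against the controls of the other label, with no share of all genes given for this setting.

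Nrxn3 fell in knockout hippocampus by -0.59 ± 0.083 against the controls of the same label (adjusted p = 6.44e-05) and by -0.29 ± 0.083 against those of the other (adjusted p = 0.00937). In knockout mPFC it fell by -0.33 ± 0.083 (adjusted p = 0.00458) and by -0.62 ± 0.083 (adjusted p = 3.87e-05). Nrxn2 turned with the choice of controls. In knockout hippocampus it fell by -0.20 ± 0.064 against the controls of the same label and rose by 0.20 ± 0.064 against the other, and in knockout mPFC it rose by 0.19 ± 0.064 and fell by -0.21 ± 0.064 (adjusted p = 0.021, 0.0172, 0.0211 and 0.0185 in that order). The knockout groups themselves differed by 0.007 ± 0.064 in Nrxn2, hippocampus against mPFC, and the control groups by 0.40 ± 0.064.

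Nlgn2 fell in knockout hippocampus by -0.41 ± 0.064 (adjusted p = 0.000133) and in knockout mPFC by -0.37 ± 0.064 (adjusted p = 0.000362), each against the controls labelled hippocampus. Against those labelled mPFC it differed by -0.14 ± 0.064 and -0.096 ± 0.064 in knockout hippocampus and mPFC and did not pass (adjusted p = 0.0802 and 0.231). Cadm3 followed the same pattern, falling by -0.52 ± 0.058 and -0.41 ± 0.058 in the knockout groups against the controls labelled hippocampus (adjusted p = 6.41e-06 and 6.24e-05), with values of -0.037 and 0.074 that did not pass against those labelled mPFC. Nlgn1 and Cadm2 fell in knockout mPFC against both control groups, Nlgn1 by -0.27 ± 0.080 and -0.29 ± 0.080 and Cadm2 by -0.23 ± 0.072 and -0.40 ± 0.072 (same and other label; adjusted p = 0.0116, 0.0105, 0.0171 and 0.000531 in that order). In knockout hippocampus neither passed against either, at -0.017 and -0.001 for Nlgn1 and at -0.051 and 0.12 for Cadm2. Nlgn3 rose in knockout mPFC against the controls of the same label, by 0.12 ± 0.039 (adjusted p = 0.0155), but not against the other (0.029 ± 0.039, adjusted p = 0.581). Cadm1 rose in knockout hippocampus against the controls of the same label, by 0.23 ± 0.086 (adjusted p = 0.0424), and did not pass against the other (0.18 ± 0.086, adjusted p = 0.0976). Single removals ended the mPFC calls of Nrxn2 (without knockout library 1 or 2 or control library 2, adjusted p = 0.0605 to 0.0972), Cadm2 (without knockout library 1 or 2 or control library 3, 0.0528 to 0.0682), Nlgn1 (without knockout library 1, 0.0594) and Nlgn3 (without control library 2, 0.0538). They also ended the hippocampus calls of Nrxn2 (without knockout library 4 or 5 or control library 1 or 2, 0.0543 to 0.0959) and of Cadm1 (without any knockout library, control hippocampus library 1 or 2, or control mPFC library 1 or 2, 0.0504 to 0.195), the last also without the filter on low values (0.0592). In hippocampus Nlgn3 and Cadm4, which did not pass (-0.095 ± 0.039 and -0.16 ± 0.078, adjusted p = 0.0601 and 0.112), passed without control hippocampus library 3 (-0.12 and -0.23) and without knockout mPFC library 3. Cadm4 passed as well in a fit of the hippocampus groups alone (adjusted p = 0.0375), and Nlgn3 after TMM rescaling (0.0469).

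**Figure D3:**
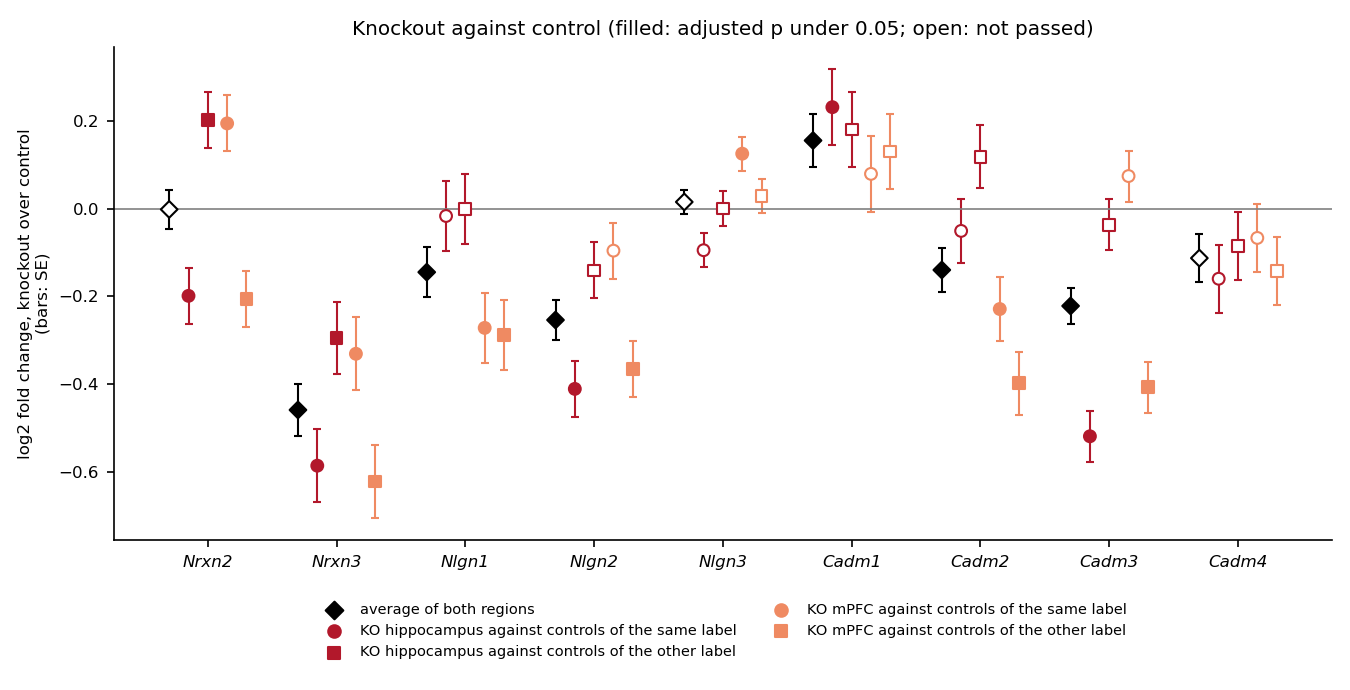
Log2 fold change of knockout over control for each member, with SE bars: the average over both regions (diamonds) and each knockout region against the controls of the same label (circles) and of the other label (squares). Filled symbols passed, and for Nrxn3 all 5 are filled and below 0.

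The effect of the knockout differed between hippocampus and mPFC, as labelled, for 4 members (44.4%, all lower in hippocampus, beside 24.4% of all genes, 11.8% higher and 12.6% lower): Cadm3 by -0.59 ± 0.082, Nrxn2 by -0.39 ± 0.090, Nlgn2 by -0.32 ± 0.090 and Nlgn3 by -0.22 ± 0.055 (adjusted p = 0.000173, 0.00601, 0.0202 and 0.00956). With the control labels exchanged the difference was 0.37 ± 0.082 for Cadm3, 0.41 ± 0.090 for Nrxn2 and 0.52 ± 0.10 for Cadm2, which passed. In this setting 13.8% of all genes passed. The difference was then 0.22 ± 0.090 for Nlgn2 and -0.029 ± 0.055 for Nlgn3, which did not pass. As labelled, the Nlgn2 call ended without knockout hippocampus library 6, knockout mPFC library 1, control hippocampus library 1 or 2 or control mPFC library 2 (adjusted p = 0.0515 to 0.0583). Nlgn1 passed without knockout mPFC library 3 (0.34) or control hippocampus library 3 (0.35), as did Cadm2 without control hippocampus library 3 (0.28) and Cadm1 and Cadm4 without knockout mPFC library 3 (0.26 and -0.20). The direction of this difference cannot be told apart from the region labels of the acute libraries. Smarcc1 was also lower in knockout hippocampus than in knockout mPFC, averaging 1570 and 2465, and the part of this in the difference was not tested.

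Among the knockout libraries, Cadm2 was higher under the hippocampus label than under the mPFC label by 0.35 ± 0.072 (adjusted p = 0.00619). Cadm2 had 4615, 4622 and 4493 in knockout hippocampus, against 3435, 3491 and 3884 in knockout mPFC. Nlgn1 was higher by 0.27 ± 0.080 (adjusted p = 0.0355) and Nlgn3 lower by -0.12 ± 0.039 (adjusted p = 0.0429). That is 3 members, 33.3%, beside 15.1% of all genes (8.14% higher and 6.97% lower). The regions did not overlap for 4 members, beside 32.6% of all genes. The call of Cadm2 held in each single removal. That of Nlgn1 ended in 8 of 12, all but knockout mPFC library 3 and the 3 controls labelled hippocampus (adjusted p = 0.0501 to 0.15), and that of Nlgn3 in 10 of 12, all but library 3 of knockout mPFC and of the controls labelled hippocampus (0.0514 to 0.148). The Nlgn3 call also ended without the filter on low values (0.0515) and in a fit of the knockout groups alone (0.0912). Cadm1 passed without knockout mPFC library 3 (0.20, adjusted p = 0.0325). Between the control groups 4 members were higher under the hippocampus label than under the mPFC label and 0 lower, where 23.7% of all genes passed (12.2% higher, 11.5% lower) and 6 members did not overlap, beside 41.2%: Cadm3 by 0.48 ± 0.058, Nrxn2 by 0.40 ± 0.064, Nrxn3 by 0.29 ± 0.083 and Nlgn2 by 0.27 ± 0.064 (adjusted p = 5.21e-05, 0.000563, 0.0207 and 0.00695). The Nrxn3 call ended without control hippocampus library 2 or 3 or any control mPFC library (adjusted p = 0.0545 to 0.0666). Nlgn3 passed without knockout mPFC library 3 (0.095) or control hippocampus library 3 (0.12), and Cadm2 without knockout mPFC library 3 (0.17).

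Members with long genes and members with short genes went opposite ways in the libraries that stand apart. In knockout mPFC library 3, Cadm1, Nlgn1, Nrxn3 and Cadm2, which span 328 to 1612 kb, stood 0.17 to 0.31 above the mean of the other libraries of the group on the log2 scale. In control hippocampus library 3 the same 4 stood 0.18 to 0.31 above. The members that span 14.7 to 125 kb stood below in both, Cadm4 by -0.32 and -0.21, Nlgn2 by -0.18 and -0.21, Nrxn2 by -0.17 and -0.21, and Cadm3 and Nlgn3 by -0.025 to -0.14. Over 13647 genes with a GENCODE span, the median deviation ran from -0.13 in the quartile of shortest genes to 0.11 in that of the longest in the knockout library, and from -0.095 to 0.057 in the control library. In the libraries of the other groups the quartile medians stayed within -0.026 to 0.03. By exon length instead of span, the medians ran from -0.11 to 0.115 in the knockout library and from -0.081 to 0.065 in the control library. Span and exon length were not told apart. Without both libraries the average effect was -0.47 for Nrxn3, -0.26 for Nlgn2 and -0.24 for Cadm3, and 7 members passed in all, Cadm4 among them at -0.094 ± 0.024. In hippocampus without both libraries, Cadm4 (-0.23 ± 0.034) and Nlgn3 (-0.12 ± 0.029) passed as well. Against the controls of the other label and without both libraries, 6 members passed for knockout hippocampus: beside Nrxn2 and Nrxn3 these were Cadm1 (0.18 ± 0.040, adjusted p = 0.000637), Cadm2 (0.12 ± 0.028, adjusted p = 0.00125), Nlgn2 (-0.14 ± 0.031, adjusted p = 0.000588) and Cadm4 (-0.085 ± 0.030, adjusted p = 0.0196). For knockout mPFC 7 passed, Cadm4 added at -0.10 ± 0.037 (adjusted p = 0.0272). For the contrasts between regions, more genes of all kinds passed in this setting as well, as given below. The share of all genes is not given beside these counts of members, so their rise is not read as particular to the set. What sets these libraries apart was not tested.

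**Figure D4:**
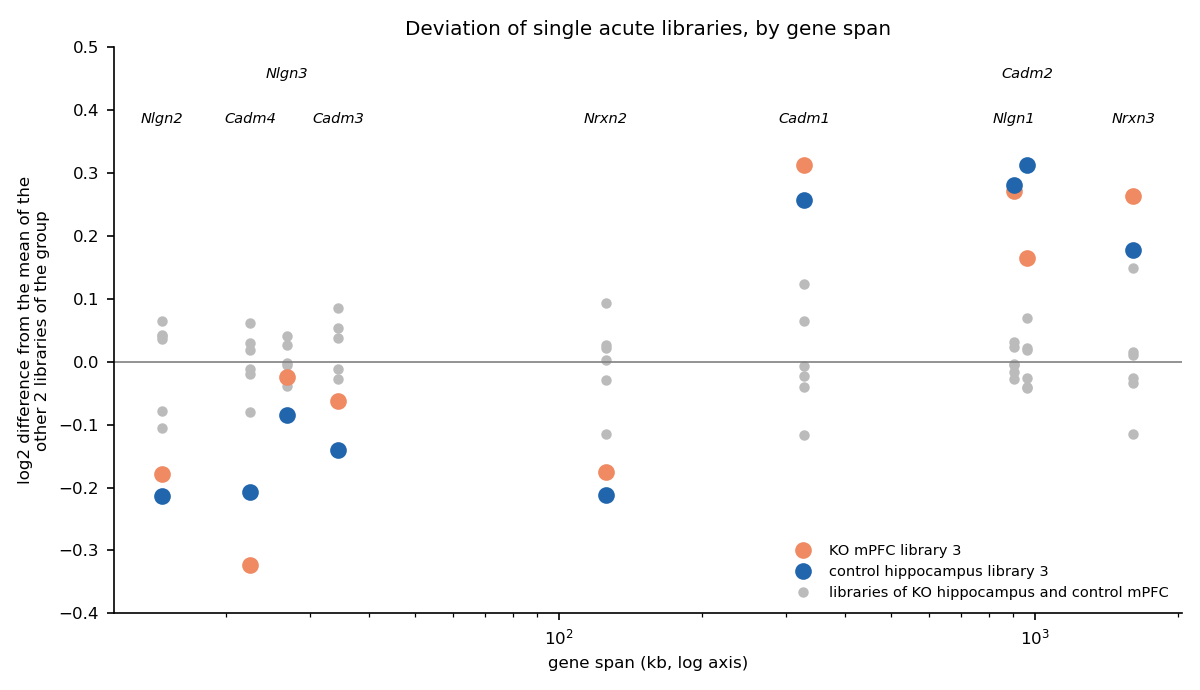
Log2 difference of single acute libraries from the mean of the other libraries of their group, for each member, against gene span (kb, log axis). Knockout mPFC library 3 and control hippocampus library 3 lie above 0 for the 4 longest genes and below 0 for the 5 shortest, and grey points are the 6 libraries of the groups without such a library.

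Partners and regulators of these proteins and other synaptic adhesion genes are together called partner genes. Of 88 genes on these lists, 83 were tested in the acute table. On average over both regions 21 rose, 31 fell and 31 did not pass, where 26.9% of all genes rose and 27.5% fell. Among other ligands and receptors, 4 of 19 rose and 8 fell, the clearest being Adgrl2, a latrophilin, at 0.60 ± 0.040, the neurexin ligand Lrrtm1 at -0.61 ± 0.062 and the alpha-neurexin ligand Nxph1 at -0.36 ± 0.040. Of 22 LAR-type phosphatases, their ligands and other synaptic adhesion genes 4 rose and 11 fell. The clearest were Il1rap at 1.25 ± 0.054, Lrrc4c at -0.68 ± 0.039 and Ntng1, the binding partner of the Lrrc4c protein, at 1.37 ± 0.095. Of 26 scaffolds and adaptors 11 rose and 5 fell, led by the Mint adaptors Apba2 at 0.72 ± 0.034 and Apba1 at 0.39 ± 0.033 and by Epb41 at -0.61 ± 0.029. Of 16 regulators 2 rose and 7 fell, led by the splicing factors Nova1 at -0.41 ± 0.034 and Khdrbs3 at -0.22 ± 0.033 and the protease gene Bace1 at 0.25 ± 0.039. All 12 passed at adjusted p of 9.29e-05 or less.

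With GABA 4 members passed in mouse hippocampus cultures and 1 in mouse mPFC cultures. In hippocampus cultures Cadm4 had 8410, 8616 and 8531 normalized read counts with GABA, against 7914, 7686 and 7239 untreated. All GABA libraries were above all untreated ones, and Cadm4 rose by 0.16 ± 0.032 (1.12-fold; adjusted p = 0.000611). Nlgn1 had 1322, 1395 and 1388 with GABA, against 1542, 1436 and 1571 untreated, and fell by -0.15 ± 0.043 (adjusted p = 0.0143). Cadm1 fell by -0.13 ± 0.039 (adjusted p = 0.0171) and Nrxn2 rose by 0.14 ± 0.043 (adjusted p = 0.0162), the last with overlapping groups. These 4 are 44.4% of the members, beside 24.7% of all 14933 genes (11.9% rose and 12.8% fell), and the groups of 4 members did not overlap, beside 39.3%. The calls of Cadm1 (without GABA library 1 or 2 or untreated library 2, adjusted p = 0.0552 to 0.131), Nlgn1 (without GABA library 1, 0.0993) and Nrxn2 (without GABA library 1 or 2 or untreated library 2 or 3, 0.0628 to 0.104) ended with a single removal, and that of Cadm4 did not. The Nrxn2 call also ended without the filter on low values (0.0548). Nlgn2, at 0.064 ± 0.031 (adjusted p = 0.13), passed without untreated library 1 (0.029).

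In mPFC cultures 1 member passed, Cadm3, with 1435, 1559 and 1593 with GABA, against 1755, 1698 and 1777 untreated. It fell by -0.19 ± 0.047 (0.876-fold; adjusted p = 0.0201), and the call ended without any 1 of the untreated libraries (adjusted p = 0.063 to 0.118). This is 11.1% of the members, beside 6.55% of all 14894 genes (3.18% rose and 3.36% fell). The groups did not overlap for 5 members, beside 25.8% of all genes: Nlgn3 was higher with GABA, at 0.13 ± 0.043, and Nlgn1, Cadm1 and Cadm2 lower, at -0.11 ± 0.046, -0.12 ± 0.040 and -0.068 ± 0.036, none of which passed (adjusted p = 0.0746 to 0.296). Without GABA library 1, Nrxn2 (0.12), Nlgn1 (-0.14) and Cadm1 (-0.12) passed, and without GABA library 2 Cadm1 (-0.15) did. The GABA effect was higher in hippocampus than in mPFC cultures for Cadm3, by 0.25 ± 0.067 (adjusted p = 0.0352), and lower for Nlgn3, by -0.21 ± 0.057 (adjusted p = 0.0412), 22.2% of the members beside 4.82% of all genes (2.61% higher and 2.21% lower). Cadm3 lost its call in 9 of 12 single removals, all but untreated hippocampus library 1 and GABA mPFC libraries 2 and 3 (adjusted p = 0.0538 to 0.1), and Nlgn3 in 8, all but those 3 and GABA hippocampus library 3 (0.0583 to 0.134). Nlgn2 and Cadm4 passed without GABA mPFC library 2 (0.19 and 0.20). Of 83 and 82 partner genes tested in hippocampus and mPFC cultures, 8 and 1 rose and 19 and 13 fell, beside the shares of all genes given above. Ptprd, a LAR-type phosphatase, fell in hippocampus cultures by -0.42 ± 0.038 and in mPFC cultures by -0.31 ± 0.045, and the protein 4.1 gene Epb41l3, whose product binds SynCAMs, by -0.42 ± 0.037 and -0.27 ± 0.045. In the same cultures 5 of 10 microglia markers fell with GABA in hippocampus, where their sum was 1470 to 1483 with GABA and 1866 to 1966 untreated, and 4 of 6 myelin genes fell in mPFC. Other lists moved too. In hippocampus cultures 5 of 9 mural and fibroblast markers rose and 0 fell, with sums of 11939 to 12189 with GABA and 9568 to 10424 untreated. In mPFC cultures 4 of 10 astrocyte markers rose and 2 fell. The part of these shifts in the results was not tested.

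In rat cortex cultures 3 members rose with GABA and 6 fell with glutamate. With GABA, Nrxn3 had 343, 287 and 318, against 261, 246 and 210 untreated, and rose by 0.40 ± 0.082 (1.323-fold; adjusted p = 0.000372). Cadm2 had 3726, 3579 and 3758, against 3016, 3183 and 3012, and rose by 0.26 ± 0.031 (adjusted p = 6.18e-08). Cadm1 had 2452, 2606 and 2538, against 2249, 2302 and 2136, and rose by 0.18 ± 0.034 (adjusted p = 0.00012). For these 3 all GABA libraries were above all untreated ones, as groups did without overlap for 37.2% of all genes, and 33.3% of the members passed beside 23.7% of all 12481 genes (11.9% rose and 11.8% fell). The other 6 members lay between -0.031 and 0.036 and did not pass. No single removal ended these 3 calls.

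Nlgn1 had 609, 512 and 637 with glutamate, against 735, 738 and 643 untreated, and fell by -0.27 ± 0.056 (0.829-fold; adjusted p = 6.31e-05). Cadm2 had 2745, 2740 and 2720 with glutamate, against 3302, 3310 and 3141, and fell by -0.25 ± 0.028 (adjusted p = 1.35e-11). Cadm1 had 2812, 2908 and 2867, against 3327, 3306 and 3220, and fell by -0.20 ± 0.028 (adjusted p = 1.32e-08). In each of these genes the glutamate libraries were all below the untreated ones. Nrxn2 fell by -0.19 ± 0.024, Nlgn2 by -0.14 ± 0.028 and Cadm4 by -0.10 ± 0.022 (adjusted p of 8.82e-05 or less). Nrxn3, at -0.10 ± 0.079, and Nlgn3, at -0.059 ± 0.024, did not pass, though their groups did not overlap, and Cadm3 stood at -0.01 ± 0.045. The 6 falls are 66.7% of the members, beside 28.3% of all 12465 genes (14.1% rose and 14.2% fell), and the groups of 8 members did not overlap, beside 38.8% of all genes. No single removal ended the 6 falls, and Nlgn3 passed too without glutamate library 2 (-0.07, adjusted p = 0.0456) and after TMM rescaling (-0.062, adjusted p = 0.0433).

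Each transmitter was compared with its own untreated cultures, so these results share no library. Transmitter and culture set changed together, so a difference between the transmitters cannot be told apart from a difference between the sets. The glutamate effect lay below the GABA effect for 6 members, 66.7% beside 20.4% of all genes (10.4% below): Cadm2 by -0.51 ± 0.042 (adjusted p = 5.02e-14), Nrxn3 by -0.51 ± 0.11 (0.000633), Cadm1 by -0.38 ± 0.044 (1.59e-09), Nlgn1 by -0.31 ± 0.083 (0.0054), Nrxn2 by -0.15 ± 0.037 (0.00141) and Nlgn2 by -0.14 ± 0.041 (0.00973). Without glutamate library 2 the value of Nlgn1 was -0.21 and did not pass (adjusted p = 0.0556). Cadm4 did not pass, at -0.093 ± 0.037 (adjusted p = 0.0701), but did without GABA library 3 (0.0342) or without untreated library 3 of the GABA set (0.0276).

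**Figure D5:**
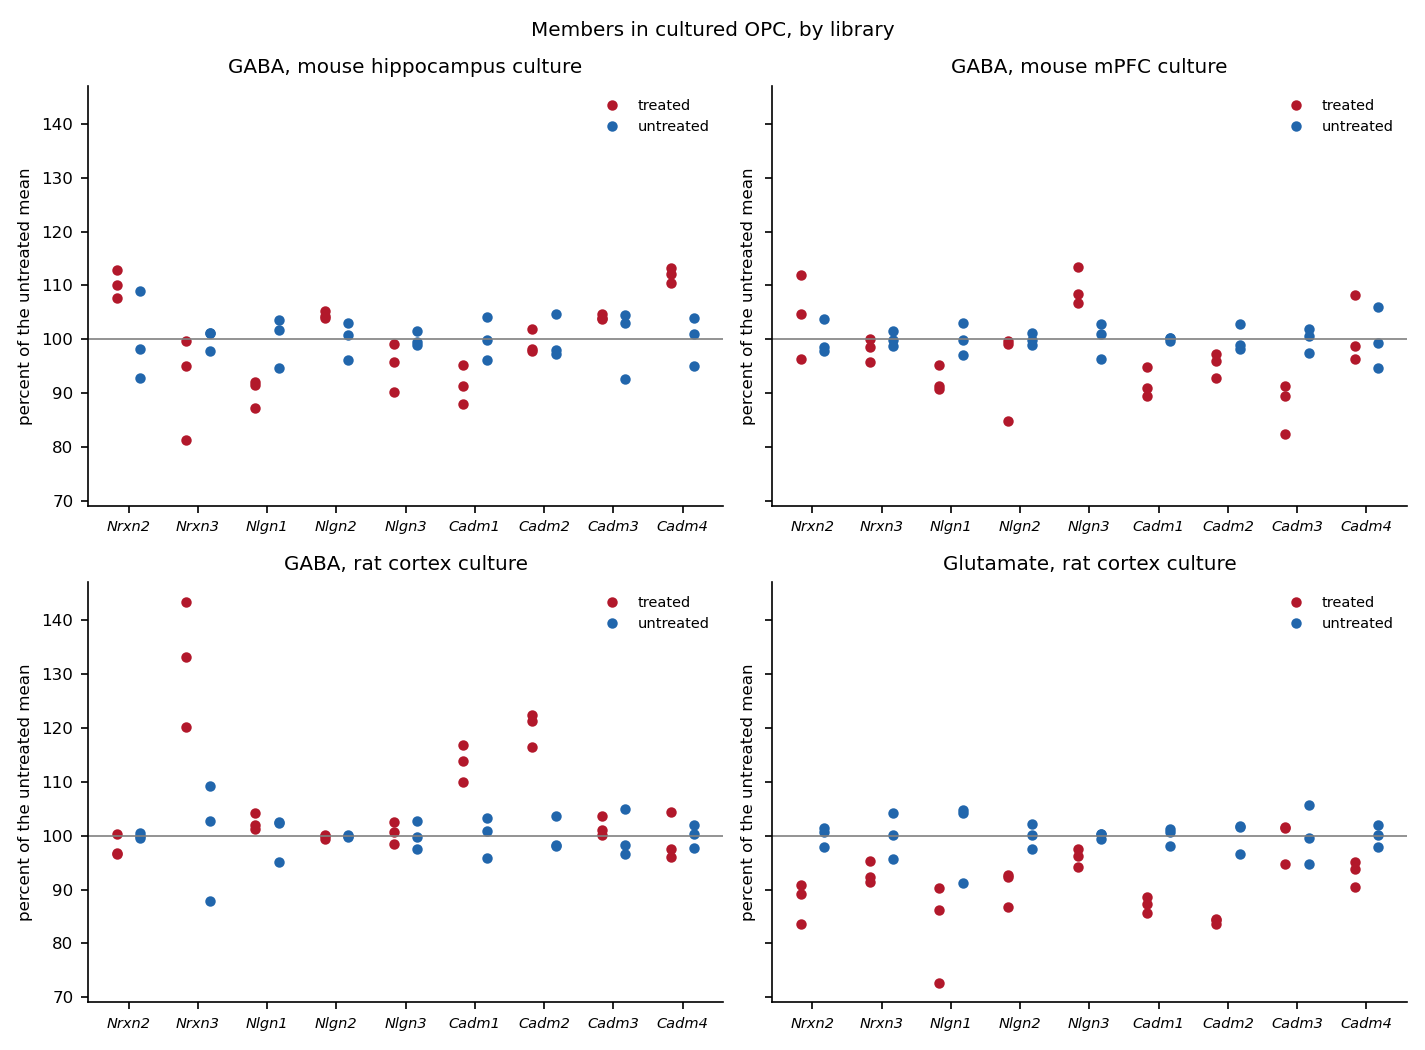
Members in cultured OPCs, each library as a percent of the mean of the untreated libraries of its table, treated cultures left of untreated ones. In rat cultures Nrxn3, Cadm1 and Cadm2 lie above the untreated libraries with GABA, and 8 of 9 members lie below them with glutamate.

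OPC markers and genes of the differentiating OPC moved with both transmitters in rat. Of 12 OPC markers 3 rose and 7 fell with GABA, with sums of 184574 to 185974 against 188361 to 190826 untreated, and 2 rose and 8 fell with glutamate, with sums of 181919 to 183720 against 199215 to 200695 untreated. With GABA 5 of 8 committed OPC markers rose and 2 fell, and their sum was 122146 to 122661 with GABA, against 115020 to 116800 untreated. With glutamate 8 of 8 fell, at 82152 to 83028 with glutamate, against 99746 to 101188 untreated, and 5 of 9 myelin genes fell where 5 of 8 had risen with GABA. Of 11 microglia markers 10 rose with GABA, with a summed level of 2003 to 2066 against 1238 to 1312 untreated, and with glutamate 8 of 11 astrocyte markers rose, with a sum of 51401 to 51655 against 43263 to 43527. The part of these shifts in the members' values was not tested. Of 81 partner genes tested 15 rose and 6 fell with GABA, and 6 rose and 28 fell with glutamate, where 11.9% and 14.1% of all genes rose and 11.8% and 14.2% fell. The neuroligin blocker Mdga1 rose by 0.53 ± 0.090 with GABA and fell by -0.34 ± 0.081 with glutamate, and Bace1 rose by 0.22 ± 0.032 and fell by -0.17 ± 0.028. Il1rap rose by 0.35 ± 0.048 and the neurexin ligand Lrrtm2 by 0.17 ± 0.038 with GABA. With glutamate the protein 4.1 gene Epb41l2 fell by -0.35 ± 0.021, the latrophilin Adgrl3 by -0.23 ± 0.028 and Slitrk2 by -0.24 ± 0.026, while Ptprf rose by 0.21 ± 0.028.

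Across the 12 acute libraries, the genes whose log2 values followed the members most closely by Pearson's r were Dcc (0.967) and Cyp51 (0.966) for Nrxn3, Prex1 (0.972) and Zfp598 (0.958) for Nrxn2, Avl9 (0.984) and Slitrk2 (0.976) for Nlgn1, Cic (0.983) and Cuedc1 (0.980) for Nlgn2, and Slc38a3 (0.958) and Bcl9l (0.949) for Nlgn3. For the SynCAMs they were Ugp2 (0.963) and Wwp1 (0.943) for Cadm1, Impact (0.973) and Pnisr (0.969) for Cadm2, Bahcc1 (0.969) for Cadm3, and Napa (0.975) and Irf2bp1 (0.973) for Cadm4. The points share genotype groups and the libraries that stand apart, and the pairs were picked from all genes tested.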

How the data were processed

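Poly-A libraries of acutely isolated and cultured OPCs were read as single 50-base reads, per the labels' protocols. The authors deposited 5 tables of normalized read counts, a signal whose values in each library are whole multiples, within 1e-06, of 1 step of 0.905 to 1.12 units, read here as the worth of 1 read. HISAT, Bowtie2, DESeq2 and the mouse build GRCm38.p6 are named in the submitters' processing notes, without versions or roles, and for rat no build is given in the sources at hand. Since the values are scaled, no count test was run. Values were compared as log2(value + 1) with limma 3.58.1 (R 4.3.3), 1 fit per table, over genes with at least 10 in at least 3 libraries, all 9 members included. The pseudocount slightly understates changes of low genes. Benjamini-Hochberg adjustment ran over every gene tested in a comparison, with 0.05 as the threshold for passing. With 3 against 3 libraries an exact permutation cannot go below p = 0.1. Fits were tested on simulated data. Errors are SE for fold changes, from a spread that limma draws toward a trend over all genes, and SD for means. Comparisons between tables use only differences made within a table. The members, lists and comparisons were chosen with earlier results of these data known. The average knockout effect, the removal of the libraries that stand apart (alone or with the control labels exchanged) and a block on description numbers were added after seeing the data. Genes named were the members, per partner list the 3 smallest p-values among those that passed, and the 2 genes most like each member (1 of these is not reported here). Not all partner genes that met this rule are printed for the cultures and separate regions.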

Additional observations from a re-analysis of the deposited data

Results flagged for a closer look

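Members whose effect under the same contrast differed between regions or between transmitters, by a test of the difference itself, were looked at again. For the knockout effect in hippocampus minus that in mPFC these are Nrxn2 (-0.39), Nlgn2 (-0.32), Nlgn3 (-0.22) and Cadm3 (-0.59), and with the control labels exchanged Nrxn2 and Cadm3 turn to 0.41 and 0.37. For the GABA effect in mouse hippocampus minus mPFC cultures they are Nlgn3 (-0.21) and Cadm3 (0.25). For the glutamate effect minus the GABA effect in rat cortex cultures they are Nrxn2 (-0.15), Nrxn3 (-0.51), Nlgn1 (-0.31), Nlgn2 (-0.14), Cadm1 (-0.38) and Cadm2 (-0.51). Groups of 3 libraries were not tested for single outlying libraries.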

How the results depend on the processing

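Pseudocounts of 0.1 and 10 changed no call of a member. TMM rescaling, no filter and fits on only the groups compared changed 3, 5 and 2 calls of members, each given beside its result, and none reversed. Without the filter 641 genes passed for GABA in mouse mPFC cultures. The count tests planned with edgeR and DESeq2 were not run, since the values are scaled. The replicate number was used as a block, though same-numbered deviations correlated only weakly (-0.036 to 0.118). Each control hippocampus library correlated best with the control mPFC library of its own number (0.053, 0.039 and 0.050). With this block Nlgn3 passed with glutamate (-0.059, adjusted p = 0.04), and 7201 genes passed for the mPFC knockout. No other call of a member changed where the block could be fitted. By the numbers in their titles, 4 to 6, the knockout hippocampus libraries share none with their controls, but their descriptions number them 1 to 3. A block on the description numbers over all acute libraries, chosen after seeing the data (correlations from -0.046 to 0.249), ended no call of a member: 7, 6 and 5 members and 7975, 6429 and 7069 genes passed for the average, hippocampus and mPFC knockout. Cadm4 then passed for the average (-0.11, adjusted p = 0.0342) and in hippocampus (-0.16, 0.0416), Nlgn1 for the difference between regions (0.26, 0.0453) and Cadm2 between the control regions (0.17, 0.0434).

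With control libraries taken from the other region label, 2 members passed for the hippocampus knockout (6 without both libraries that stand apart), and 1929 genes for the difference between regions. Reversed values for the mPFC knockout were Cadm3 -0.41 and Nrxn2 -0.21 (also without both libraries that stand apart -0.43 and -0.22), for the hippocampus knockout Cadm2 0.12 (0.12), Nlgn3 0.000 (0.000) and Nrxn2 0.20 (0.20), and for the difference Cadm3 0.37 (0.40), Cadm4 0.057 (0.018), Nlgn2 0.22 (0.24), Nrxn2 0.41 (0.42) and Nrxn3 0.33 (0.36). Without both libraries alone, Cadm1 -0.025 and Cadm4 0.041 in mPFC, Cadm2 0.053 and Nlgn1 0.076 in hippocampus, Nrxn2 -0.051 between the knockout regions and Nlgn1 -0.077 between the control regions reversed. In the same setting 6990 genes and 8 members passed for the difference, 6250 and 7 for the regions of the knockout and 5896 and 7 for those of the control. With all libraries 3415, 2114 and 3313 genes passed, in that order.

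Leaving out each library in turn, members passed numbered 3 to 6 for the average knockout effect, 3 to 7 for hippocampus, 2 to 5 for mPFC, 3 to 7 for their difference, 1 to 4 between knockout regions, 1 to 5 and 0 to 4 with GABA in mouse hippocampus and mPFC cultures, and 0 to 4 for the difference of these. Genes passed ranged over 6946 to 7857 for the average knockout effect, 4624 to 6998 for hippocampus and 5599 to 7050 for mPFC. They ranged over 2421 to 5283 for the difference between regions, and 1045 to 4922 and 2111 to 4576 between knockout and between control regions. With GABA they ranged over 2357 to 4300 and 418 to 1820 in mouse hippocampus and mPFC cultures, and 270 to 1279 for their difference. Values near 0 changed sign: Cadm1 -0.034 to 0.024 for the mouse GABA difference, Cadm2 -0.029 to 0.025 (mouse hippocampus GABA), Cadm4 -0.035 to 0.059 (mouse mPFC GABA), in rat with GABA Cadm3 0.000 to 0.06, Cadm4 -0.046 to 0.013, Nlgn2 -0.005 to 0.001 and Nlgn3 -0.01 to 0.029, Cadm3 -0.047 to 0.031 with glutamate and -0.071 to 0.007 for glutamate minus GABA. The same holds for Cadm1 -0.14 to 0.023 and Nlgn1 -0.077 to 0.074 between control regions, Cadm4 -0.13 to 0.047, Nrxn2 -0.051 to 0.048 and Nrxn3 -0.026 to 0.12 between knockout regions, Nrxn2 -0.038 to 0.027 for the average knockout effect, Cadm2 -0.11 to 0.053 and Nlgn1 -0.076 to 0.076 for the hippocampus knockout and Cadm1 -0.025 to 0.14 and Cadm4 -0.13 to 0.041 for the mPFC knockout. The cause of these changes was not tested.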
